A study of Mus musculus with 4 samples.

Results

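The 10 genes described here encode secreted or shed ligands that attract monocytes, macrophages and lymphocytes: Csf1, Il34, Ccl2, Ccl7, Ccl8, Ccl20, Cx3cl1, Cxcl9, Cxcl10 and Cxcl16. They were chosen by symbol, and all 10 were found among 51826 gene rows. The libraries came from mouse mammary tumours, all labelled C3-T+, a name that the labels do not explain. By their labels, both libraries of the WT group were Elf5+/+, with an intact Elf5 pair, and both of the HET group Elf5+/-, with 1 intact copy. The sources used here do not give strain, age or treatment. Tumours were digested and sorted with antibodies to CD45, CD31 and TER119, which mark leukocytes, endothelium and erythroid cells, to enrich tumour cells. Both HET titles share 1 leading number and the WT titles carry different numbers. No label says whether that number names an animal. If it does, both HET libraries came from 1 animal and are not independent replicates of the genotype. The p-values reflect the spread among these libraries alone, which may be technical.

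Chemokines are small secreted proteins that bind receptors coupled to G proteins and direct the movement of leukocytes. Their classes are named after the spacing of the first conserved cysteines: CC, CXC and CX3C. CSF1 and IL-34 are not chemokines: they bind the receptor tyrosine kinase CSF1R, on which tissue macrophages depend. In mammary tumours, CSF1 and CCL2 are known for drawing in monocytes and sustaining macrophages, and CXCL9 and CXCL10 for drawing in T cells that carry CXCR3.

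Library totals ranged from 12695132 to 15307939 counts, and every ligand gene had between 21 and 2726 counts in every library. Levels are given as CPM, which sets each count against its library total adjusted by a TMM factor. Unless stated otherwise, series of 4 values or ratios follow the order WT 1, then the library labelled WT 2, then HET 1, then HET 2. Elf5 itself, an ETS transcription factor gene, stood at 35.6, 4.70, 5.39 and 10.6 CPM. The library labelled WT 2 thus lay below both HET libraries, and each direction of HET over WT rests on that label. Markers of other cell types remained after the sort and were unequal. Ptprc, which encodes CD45, stood at 62.1, 2.85, 73.4 and 66.1 CPM. The 8 pan-leukocyte markers summed to 328, 17.1, 373 and 299 CPM, the 14 macrophage and monocyte markers to 904, 92.6, 958 and 638 CPM, and the 7 endothelial markers to 353, 71.0, 295 and 511 CPM. The 10 fibroblast markers summed to 7645, 23632, 4635 and 5731 CPM, and the 7 epithelial markers to 3583, 3152, 2358 and 2183 CPM. For both last sums, HET 1 and HET 2 lay below both WT libraries. Taken singly, this held for 7 of 10 fibroblast and 2 of 7 epithelial markers, beside 15.9% of all genes. Without the TMM factor it held for 4 and 1 of them. Each marker of these 5 lists had counts in every library. In such bulk libraries, fewer cells of a type and less RNA per cell cannot be told apart.

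By edgeR's quasi-likelihood test, 0 of the 10 ligand genes passed an adjusted p under 0.05, beside 0% of the 21607 genes tested. DESeq2 and limma-voom also called 0 of the 10. Csf1 alone had an unadjusted p under 0.05 in edgeR, beside 3.78% of all genes tested. In 3 of 10 ligand genes (Csf1, Ccl7 and Cxcl10) both HET libraries lay below both WT libraries, and in 0 of 10 above. Among all genes tested these shares were 15.9% and 19.6%, and in all 35.5% did not overlap. Over HET against WT, the median log2 fold change was -0.10 for the 10 ligand genes and 0.04 for all genes. Below 0 were 6 of 10 ligand genes, beside 10215 of all 21607 genes tested.

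**Figure D1:**
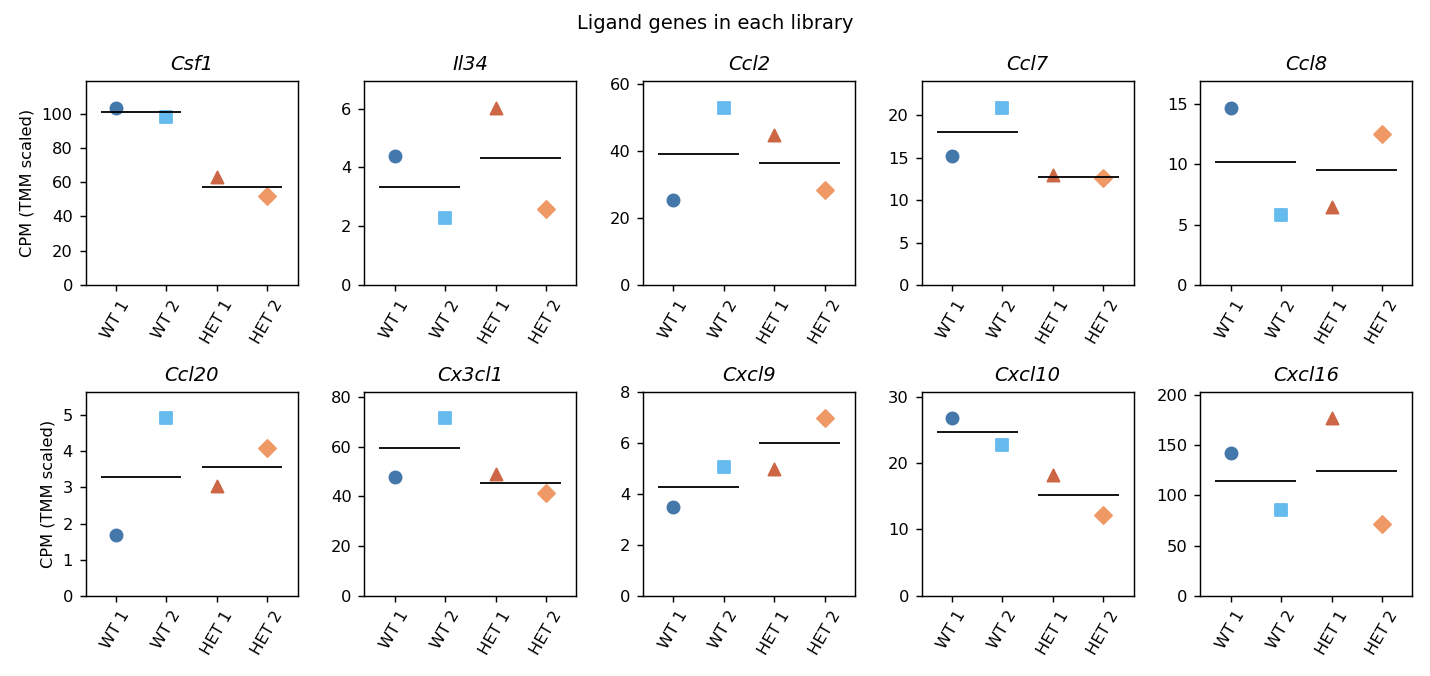
Level of each ligand gene by library, in CPM with TMM scaling on axes that start at 0; points are single libraries and horizontal lines the mean of each genotype. Csf1 lay between 51.9 and 62.9 CPM in HET and at 98.2 and 103 CPM in the WT libraries, whereas most other genes overlapped.

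Csf1, which encodes colony-stimulating factor 1, the main growth factor of macrophages, was lower in both HET libraries. It lies on chromosome 3 (107741048 to 107760469, minus strand, GRCm38). It stood at 103, 98.2, 62.9 and 51.9 CPM. The libraries of each genotype lay close together and the genotypes did not overlap. Mean levels were 101 ± 3.73 CPM in WT and 57.4 ± 7.80 CPM in HET (SD, n = 2 each). The log2 fold change was -0.81 ± 0.28 (SE), or 1.76-fold lower in HET, with an adjusted p of 0.986 and an unadjusted p of 0.0276 by the edgeR quasi-likelihood test. Ordered by p, Csf1 was number 448 among all genes tested, and it did not pass. Leaving out each library in turn left the log2 fold change between -1.01 and -0.75. Fibroblast and epithelial marker sums were also lower in HET. Against WT 1, the library labelled WT 2 stood at 3.09 times the fibroblast sum, 0.880 times the epithelial sum and 0.949 times the Csf1 level. Single epithelial markers ran from 0.418 (Krt18) to 4.07 times (Krt5), so the epithelial sum hides opposite directions. The part of these cell types in the Csf1 difference was not tested.

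The 250 bases before the RefSeq start of Csf1 are shown because Csf1 had the smallest p of the ligand genes and NF-kB is known to act on its promoter. Capitals mark matches to a kappaB motif, searched as GGGA and CC with any 4 bases between them, on both strands, which 17.6% of 32841 promoters of that length hold. Of 3 matches, 2 overlap, and the interval is chr3:107760470-107760719 (GRCm38.p6, minus strand, RefSeq).
Csf1: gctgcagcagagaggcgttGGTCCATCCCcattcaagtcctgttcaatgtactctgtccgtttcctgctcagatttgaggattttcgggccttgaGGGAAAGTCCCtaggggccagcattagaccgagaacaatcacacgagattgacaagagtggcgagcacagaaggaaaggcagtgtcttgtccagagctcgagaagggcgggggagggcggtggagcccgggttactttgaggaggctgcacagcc
A match describes letters only and is not evidence of binding.

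Il34 encodes the other ligand of CSF1R, known from skin and brain, where it maintains Langerhans cells and microglia. It lies on chromosome 8 (110741829 to 110805924, minus strand). It stood at 4.38, 2.28, 6.04 and 2.60 CPM. One library of each genotype was high and the other low, so the genotypes overlapped (log2 fold change 0.38 ± 0.67, SE; adjusted p = 0.986, edgeR). Exons of antisense gene models overlap Il34, and without known strand their reads cannot be told apart. Csf1 had more reads per length than Il34 in every library, by a factor of 10.2, 18.5, 4.48 and 8.59. Both HET ratios were below both WT ratios, a comparison chosen after the values were seen. An exact permutation test (two-sided) of 2 against 2 libraries cannot go below p = 0.333.

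Ccl2, Ccl7 and Ccl8 are neighbours on chromosome 11 and encode CC chemokines. CCL2 and CCL7 act on CCR2, which releases monocytes from bone marrow, and mouse CCL8 is known as a ligand of CCR8. Ccl2 (82035571 to 82037453, plus strand) stood at 25.3, 52.9, 44.8 and 28.3 CPM. The 2 WT libraries held its lowest and highest values, and both HET libraries lay between them. Its log2 fold change of -0.10 ± 0.45 (SE, adjusted p = 0.994, edgeR) turned to 0.53 without the library labelled WT 2.

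Ccl7 (82045712 to 82047525, plus strand) stood at 15.2, 20.9, 13.0 and 12.5 CPM. Both HET libraries lay below both WT libraries, with a gap to WT 1 smaller than that between the WT libraries. The log2 fold change was -0.50 ± 0.37 (SE; adjusted p = 0.986, edgeR), and -0.25 without the library labelled WT 2. Fibroblast markers were highest in that library too, and their part in this difference was not tested.

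Ccl8 (82115185 to 82116799, plus strand) ran the other way within each genotype, at 14.7, 5.77, 6.49 and 12.5 CPM. It was thus low in the libraries where Ccl2 was high. Its log2 fold change of -0.11 ± 0.61 (SE, adjusted p = 0.995, edgeR) turned to 0.72 without WT 1. Ccl2 reads per length over those of Ccl8 were 1.08, 5.77, 4.34 and 1.42.

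Genes beside these ligands did not share 1 pattern across libraries. Ccl11, which encodes the eosinophil chemokine eotaxin, lies 10.3 kb after Ccl7 and stood at 34.5, 41.7, 23.6 and 25.2 CPM, the same order of genotypes as Ccl7. Its log2 fold change was -0.64 ± 0.30 (SE; unadjusted p = 0.0734, edgeR). Ccl12, a further monocyte chemokine 11.8 kb before Ccl8, had 47, 1, 223 and 70 counts. Leukocyte markers were likewise lowest in the library labelled WT 2. Whether reads of Ccl2, Ccl7, Ccl11 and Ccl12, which are related in sequence, were shared between them by the authors' counting is not known.

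**Figure D2:**
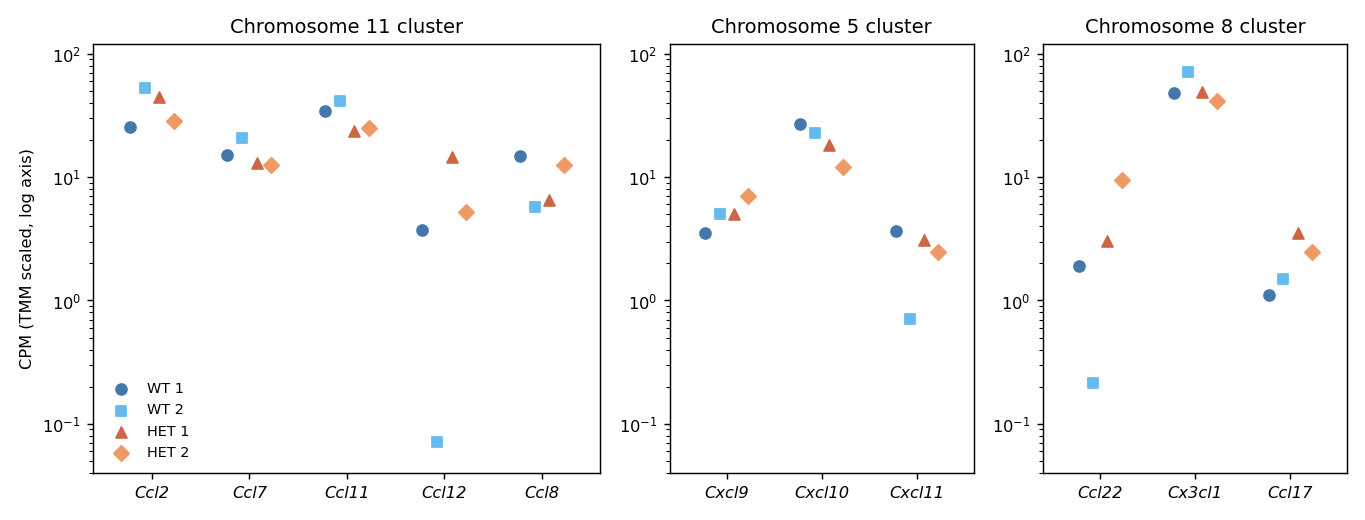
CPM with TMM scaling (log axis) of ligand genes and their chemokine neighbours, in order along the chromosome, with 1 point per library. In the library labelled WT 2, Ccl12 and its neighbour Ccl8 stood at 0.0712 (1 count) and 5.77 CPM and were at their lowest, while Ccl2, Ccl7 and Ccl11 were at their highest.

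Ccl20 encodes the chemokine ligand of CCR6, a receptor of B cells, dendritic cells and IL-17-producing T cells, and is typically made by epithelium. It lies on chromosome 1 (83116766 to 83119167, plus strand). It stood at 1.67, 4.91, 3.05 and 4.08 CPM, from 21 to 69 counts. Again both HET libraries fell between the WT libraries (log2 fold change 0.11 ± 0.69, SE; adjusted p = 0.995, edgeR), and without WT 1 the value turned to -0.46. Its range, 2.94-fold between the highest and lowest library, was the widest of the 10 ligand genes. The narrowest was the 1.66-fold range of Ccl7.

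Cx3cl1 and Cxcl16 encode the membrane-anchored chemokines, whose mucin-like stalks hold them on the cell surface until ADAM10 or ADAM17 releases them. Cx3cl1, the ligand of the monocyte receptor CX3CR1, lies on chromosome 8 (94772009 to 94782427, plus strand). It stood at 47.8, 71.5, 49.0 and 41.6 CPM. WT 1 and HET 1 were nearly equal, so the lower HET mean came mainly from the library labelled WT 2. The log2 fold change was -0.40 ± 0.32 (SE; adjusted p = 0.986, edgeR) and -0.08 without that library.

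Cxcl16, the ligand of CXCR6 on T and NK T cells and a scavenger receptor in its own right, lies on chromosome 11 (70453983 to 70459984, minus strand). It stood at 142, 85.9, 177 and 71.9 CPM. The HET libraries differed by 2.46-fold, while the genotype means were 114 and 124 CPM. Its log2 fold change of 0.13 ± 0.50 (SE; adjusted p = 0.994, edgeR) became -0.19 without the library labelled WT 2 and -0.70 without HET 1. Exons of Zmynd15 on the opposite strand overlap Cxcl16. Zmynd15 had 231, 59, 254 and 105 counts, so a part of either gene's reads is uncertain.

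The sheddase genes differed in direction. Adam10 stood at 78.8, 134, 115 and 120 CPM (log2 fold change 0.14 ± 0.35, SE), and Adam17 at 80.5, 78.7, 68.1 and 45.04 CPM (-0.49 ± 0.32, SE). Adam17, which also releases membrane CSF1, was lower in both HET libraries, beside 15.9% of all genes. Neither gene passed (adjusted p = 0.991 and 0.986, edgeR).

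Cxcl9 and Cxcl10, a neighbouring pair on chromosome 5 induced by interferon gamma, had fold changes of opposite sign. Both encode CXC ligands of CXCR3, which effector T cells and NK cells carry. Cxcl10 (92346638 to 92348889, minus strand) stood at 26.7, 22.6, 18.2 and 12.2 CPM. Both HET libraries were below both WT libraries (log2 fold change -0.70 ± 0.37, SE; adjusted p = 0.986, unadjusted p = 0.104, edgeR). Leaving out each library in turn gave -1.07 to -0.50. Fibroblast and epithelial marker sums were lower in HET as well, and their part in this difference was not tested. Exons of Art3 on the opposite strand overlap Cxcl10. Art3 had 45, 81, 59 and 76 counts against 336, 318, 281 and 164 for Cxcl10, so a part of either gene's reads is uncertain.

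Cxcl9 (92321347 to 92328079, minus strand) stood at 3.50, 5.06, 4.998 and 6.98 CPM. HET 1 and the library labelled WT 2 were nearly equal, and its log2 fold change was 0.48 ± 0.52 (SE; adjusted p = 0.986, edgeR). The count of Cxcl10 per count of Cxcl9 was 7.64, 4.48, 3.65 and 1.74. This ratio, also chosen with the values in view, did not overlap between genotypes, and the exact permutation limit of 0.333 applies. The 9 T cell markers, by contrast, summed to 23.5, 10.4, 52.1 and 66.04 CPM, and 7 of 9 were higher in both HET libraries, beside 19.6% of all genes. The same held for 4 of 5 NK and cytotoxic, 2 of 2 B cell and 4 of 7 dendritic cell markers tested. It held for 4 of 8 pan-leukocyte, 2 of 14 macrophage and monocyte and 0 of 5 neutrophil markers tested. None of the 9 T cell markers passed, and 5 had an unadjusted p under 0.05 by edgeR, beside 3.78% of all genes. Their part in the Cxcl9 and Cxcl10 values was not tested. The third gene of the cluster, Cxcl11, lies 10.7 kb beyond Cxcl10 and stood at 3.66, 0.712, 3.12 and 2.45 CPM.

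The promoters of this pair are shown because these neighbouring genes had fold changes of opposite sign. Capitals mark the kappaB motif as above and an interferon-stimulated response element, searched as GAAA and GAAA with any 2 bases between them on either strand, which 2.98% of promoters hold. The 250 bases are chr5:92348890-92349139 for Cxcl10 and chr5:92328080-92328329 for Cxcl9 (GRCm38.p6, minus strand, RefSeq).
Cxcl10: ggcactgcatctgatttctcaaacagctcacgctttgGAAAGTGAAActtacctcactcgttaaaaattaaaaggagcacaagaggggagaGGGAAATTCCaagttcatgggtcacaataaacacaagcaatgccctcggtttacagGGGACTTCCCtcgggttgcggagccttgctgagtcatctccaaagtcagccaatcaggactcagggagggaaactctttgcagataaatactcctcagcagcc
Cxcl9: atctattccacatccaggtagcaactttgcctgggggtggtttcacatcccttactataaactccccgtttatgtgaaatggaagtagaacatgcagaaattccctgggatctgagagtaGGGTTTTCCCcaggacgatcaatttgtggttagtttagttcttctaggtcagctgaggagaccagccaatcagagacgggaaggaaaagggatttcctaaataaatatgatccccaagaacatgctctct
Cxcl10 held 1 response element match, 213 to 204 bases before the start, and 2 kappaB matches. Cxcl9 held 1 kappaB match. Promoters were found for 6 ligand genes, and among the others Ccl20 held 1 kappaB match and Ccl8 and Cx3cl1 neither motif.

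**Figure D3:**
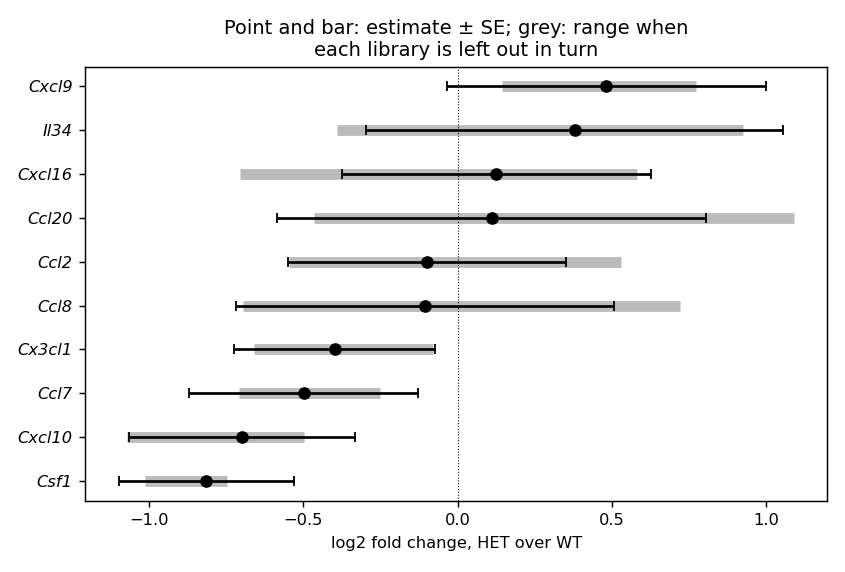
Log2 fold change of HET over WT for each ligand gene (point) with its standard error (bar) and the range obtained when each library is left out in turn (grey). Csf1, Cxcl10, Ccl7 and Cx3cl1 stayed below 0 and Cxcl9 above 0 throughout, and the other 5 genes crossed 0.

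Compared per length, the ligands fell into a more abundant and a less abundant set. Dividing CPM by the length of the longest coding transcript, Ccl2 averaged 46.5 CPM per kilobase over the 4 libraries and Cxcl16 44.2. Ccl8 (19.3), Ccl7 (19.2), Csf1 (18.9), Cx3cl1 (15.8) and Cxcl10 (14.7) followed, and their ranges overlapped with each other. Ccl20 (2.42), Il34 (2.13) and Cxcl9 (1.78) were lowest. The lowest library of the middle set, Cxcl10 in HET 2 at 8.995 CPM per kilobase, lay above the highest of the low set, Ccl20 at 3.47. With merged exon length in place of transcript length, Cxcl16 (39.5) came before Ccl2 (33.2) and the order of the other genes was the same.

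**Figure D4:**
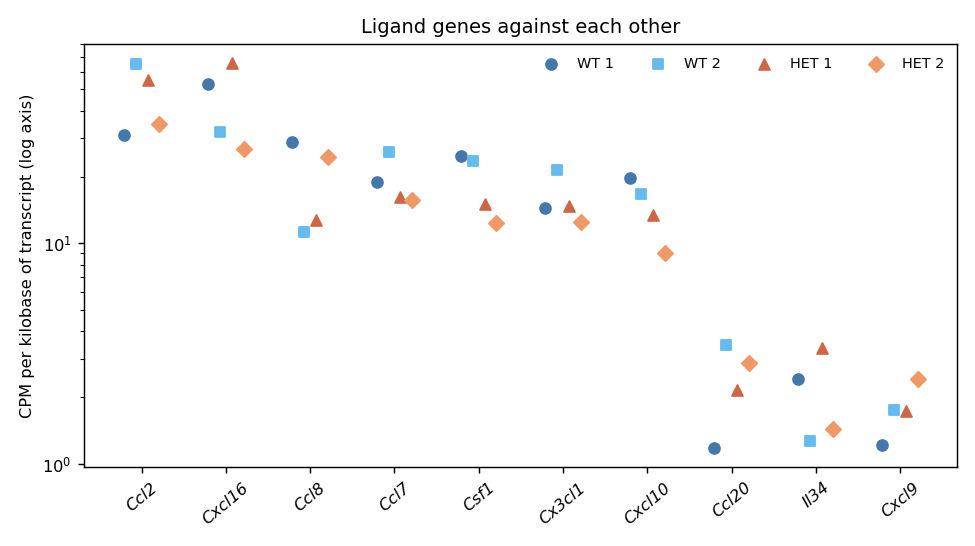
CPM per kilobase of the longest coding transcript (log axis) for each ligand gene, ordered by the mean, with 1 point per library. Ccl20, Il34 and Cxcl9 lay at or below 3.47 CPM per kilobase in all 4 libraries, and the other 7 genes at or above 8.995.

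Most receptor genes of these ligands were lowest in 1 library. Of 12 receptor genes, 11 were lowest in the library labelled WT 2, against 2 of 10 ligand genes and 38.3% of all genes tested. Highest there were 4 of 10 ligand genes (Ccl2, Ccl7, Ccl20 and Cx3cl1), beside 26.6% of all genes tested. Csf1r, the receptor of CSF1 and IL-34, stood at 98.5, 10.3, 114 and 60.6 CPM. Cx3cr1 stood at 36.9, 2.35, 46.5 and 28.1 CPM. Against WT 1 they were 9.54 and 15.7 times lower in the library labelled WT 2, where the pan-leukocyte sum was 19.2 times and the macrophage sum 9.76 times lower.

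The chemokine receptor genes of monocytes and lymphocytes were sparser. Ccr2 had 221, 2, 176 and 147 counts. Ccr1, on monocytes and neutrophils, stood at 12.7, 0.570, 10.1 and 7.87 CPM. Cxcr3 had 12, 1, 28 and 4 counts and Cxcr6 17, 5, 36 and 17 counts, so the lymphocyte receptors rest on few reads. Ccr6 (15, 0, 19 and 19 counts), Ccr3 of eosinophils (10, 0, 20 and 11 counts) and Ccr8 (6, 0, 10 and 4 counts) had no count in the library labelled WT 2, which allows up to 0.214 CPM. The limit of 0.214 CPM covers counting error only.

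The other receptors of IL-34 stood at 1.80 (Sdc1) and 0.836 (Ptprz1) times their WT 1 level in the library labelled WT 2. Sdc1, syndecan-1, an epithelial proteoglycan, stood at 295, 532, 352 and 163 CPM, and Ptprz1, a receptor phosphatase, at 7.16, 5.98, 6.69 and 7.72 CPM. Of 11 receptor genes tested, 0 passed in either direction (0 also at an unadjusted p under 0.05, by edgeR, and 0 by DESeq2 and limma-voom). Their median log2 fold change was 0.93, with 10 of 11 above 0, beside 11392 of all 21607 genes tested. In 2 of 11 both HET libraries lay above both WT libraries, beside 19.6% of all genes. For Csf1r, the log2 fold change was 0.68 ± 0.93 (SE, adjusted p = 0.986, edgeR). Csf1 reads over Csf1r reads were 1.05, 9.51, 0.552 and 0.857.

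The scavenging receptors Ackr1 and Ackr2, which bind inflammatory CC chemokines without signalling, were both higher in both HET libraries, beside 19.6% of all genes. Ackr1, a marker of venules, stood at 1.51, 0.997, 5.32 and 1.71 CPM, and Ackr2 at 1.11, 0.285, 2.01 and 1.93 CPM. Ackr1 had 19, 14, 82 and 23 counts and Ackr2 14, 4, 31 and 26 counts, so both rest on few reads. Their log2 fold changes were 1.49 ± 0.78 and 1.49 ± 0.90 (SE), and neither passed (adjusted p = 0.986 for both, edgeR).

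**Figure D5:**
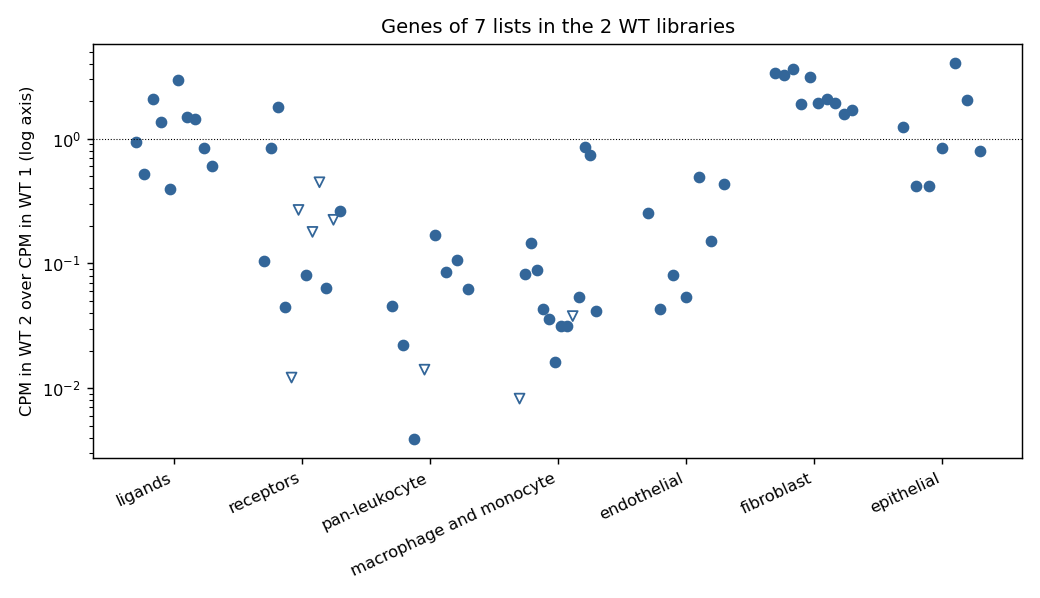
CPM in the library labelled WT 2 over CPM in WT 1 (log axis) for single genes of 7 lists; open triangles are genes with fewer than 3 counts in the library labelled WT 2, drawn at 3 counts. Ligand genes lay on both sides of 1, from 0.392 for Ccl8 to 2.94 for Ccl20, while all pan-leukocyte markers lay below 1 and all fibroblast markers above it.

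Other chemokines of mononuclear cells included some that moved with the leukocyte markers and some that did not. Of 21 such genes 18 were tested, and 0 passed in either direction (0 also at an unadjusted p under 0.05, by edgeR, and 0 by DESeq2 and limma-voom). Their median log2 fold change was 0.90, with 15 of 18 above 0, beside 11392 of all 21607 genes tested. Both HET libraries lay above both WT libraries for 8 of 18, beside 19.6% of all genes, and below for 2 of 18, beside 15.9%. The most abundant by CPM were Cxcl14, a chemokine of epithelium, at 143, 215, 302 and 131 CPM, Cxcl12, a stromal chemokine, at 37.9, 88.8, 36.5 and 35.2 CPM, and Ccl11, given above. Cxcl12 and Ccl11 were the 2 with both HET libraries below, and by total counts alone this held for Ccl11 only. The smallest p-values belonged to Ccl22, which attracts CCR4-bearing T cells, at 1.91, 0.214, 3.05 and 9.50 CPM, and to Ccl27a, a keratinocyte chemokine, at 2.47, 2.49, 5.45 and 5.79 CPM. Their log2 fold changes were 2.56 ± 1.09 and 1.18 ± 0.52 (SE; adjusted p = 0.986 for both, edgeR). Ccl22 lies 20.3 kb before Cx3cl1, and Ccl17 28.0 kb after it. Ccl22 had 24, 3, 47 and 128 counts and Ccl17 14, 21, 54 and 33 counts. Both neighbours were higher in both HET libraries, beside 19.6% of all genes, and Cx3cl1 overlapped between genotypes.

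Pathways known to induce these ligands held genes on both sides of 0. In the interferon gamma pathway 8 of 9 genes were tested, 0 passed (0 at an unadjusted p under 0.05 in edgeR, 0 by DESeq2 and limma-voom), and the median log2 fold change was -0.05. Ifng itself had too few reads to be tested, at 0.716 CPM or less, and had no count in the library labelled WT 2. Jak1, a kinase of the receptor, stood at 154, 250, 186 and 168 CPM. Irf1, which binds the Cxcl9 and Cxcl10 promoters, stood at 73.7, 68.4, 72.4 and 84.2 CPM. Ifngr2, the signalling chain of the receptor, stood at 59.2, 61.3, 44.3 and 44.2 CPM, and Irf8, a factor of myeloid and B cells, at 18.1, 1.57, 23.6 and 25.3 CPM (log2 fold change 1.32 ± 0.97, SE). Of the 8 genes tested, both HET libraries lay below both WT libraries for Ifngr2 alone and above for Irf8 alone, beside 15.9% and 19.6% of all genes.

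In the NF-kB pathway 15 of 15 genes were tested and 0 passed (0 at an unadjusted p under 0.05 in edgeR, 0 by DESeq2 and limma-voom). The median log2 fold change was -0.17, with 11 of 15 below 0, beside 10215 of all 21607 genes tested. The inhibitor gene Nfkbia stood at 279, 226, 228 and 188 CPM, the feedback gene Tnfaip3 at 239, 181, 238 and 140 CPM, and the subunit gene Nfkb1 at 157, 149, 130 and 93.6 CPM. Relb, a subunit of the alternative pathway, stood at 36.4, 39.2, 29.1 and 24.9 CPM (log2 fold change -0.48 ± 0.29, SE). Il1r1, the receptor of interleukin 1, stood at 37.1, 60.5, 37.7 and 29.4 CPM. Both HET libraries lay below both WT libraries for 2 of 15 (Nfkb1 and Relb), beside 15.9% of all genes, and by total counts alone for Relb only.

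The protein-coding genes most like single ligands were found by the Euclidean distance between log2 CPM profiles, each centred on its own mean over the 4 libraries, among 13472 genes. For Csf1 they were Zfp661 (distance 0.0668), Dbp (0.0761) and Btbd9 (0.104). For Ccl2, the most abundant per length, they were Dst (0.0663), Inpp5a (0.0670) and Ildr1 (0.0750), and for Ccl20, the widest in range, Plet1 (0.0781), Cep19 (0.116) and Traip (0.153). With 4 points a close match is common: 44 genes lay within 0.2 of Csf1, 48 of Ccl2 and 7 of Ccl20.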

How the data were processed

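RNA from 4 tumour libraries was sequenced, and the deposited table holds an estimated count per gene. The authors obtained these with Salmon, with GRCm38.p5 as the genome build, per the notes on processing that the submitters gave (deposited labels). The sources used here do not give the Salmon version, the annotation or the strandedness. The values were already whole. Of 51826 identifiers 51633 matched GENCODE M21 (GRCm38), which gave symbols, coordinates and lengths, and 0 columns belonged to other samples. The genotypes were compared in edgeR 4.0.16 under R 4.3.3 with filterByExpr, TMM scaling and the quasi-likelihood F test, genotype being the only term. This left 21607 genes, with Benjamini-Hochberg adjustment over all of them. The SE is the log2 fold change divided by the square root of F. Promoter sequences are from RefSeq (GRCm38.p6).

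Named genes are the ligands, receptors, scavenging receptors, sheddases, Elf5 and Ptprc. From the chemokine, interferon gamma and NF-kB lists come also up to 3 genes of highest mean CPM and up to 2 of smallest p. Of the genes so named 2 are not reported here, nor is 1 of the motifs searched. Ccl12, Ccl17, Cxcl11 and Ifng were named after their values were seen, as neighbours or inducer of the ligands. The members and lists were chosen with earlier results of these data known. Alternatives were DESeq2 1.42.0, limma-voom (limma 3.58.1), robust edgeR, other scalings, filters and thresholds, coding genes alone, and leaving out each library, which assumes that a lone library varies as much as those of the other genotype.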

Additional observations from a re-analysis of the deposited data

How the results depend on the processing

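The count of ligand genes that passed was 0 under all 15 alternatives. Genes passing in all numbered 324 with no filter beyond 1 count and 129 by DESeq2, and between 0 and 657 when each library was left out (657 without WT 1, 9 without the library labelled WT 2). Genes of the receptor and pathway lists that passed numbered 0 to 12 in the same way, the 12 without WT 1. Without WT 1, the WT group was the library labelled WT 2 alone. Its pan-leukocyte sum was 17.1 CPM, against 373 and 299 CPM in HET 1 and HET 2. That fit cannot tell genotype apart from the low leukocyte markers of that library. Its count for these lists is therefore not a result about genotype, and the share of list genes tested is not given. When a library was left out, ligand genes with all remaining HET libraries lower numbered 3 to 6, and with all higher 1 to 3. Genes separate more easily with fewer libraries, and the share of all genes is not given. These counts are therefore not a result about the ligands. This alternative was chosen after seeing the data. By total counts alone, also added then, 1 ligand gene, Cxcl9, was higher in both HET libraries. Total counts alone also turned the log2 fold changes of Ccl2 to 0.092 and of Ccl8 to 0.062, where the median of all genes rose from 0.04 to 0.22, and no filter beyond 1 count turned Ccl20 to -0.013. Leaving out each library gave -0.55 to 0.53 for Ccl2, -0.46 to 1.09 for Ccl20, -0.70 to 0.72 for Ccl8, -0.70 to 0.58 for Cxcl16 and -0.39 to 0.92 for Il34. Csf1, Cxcl10, Ccl7, Cx3cl1 and Cxcl9 kept their sign under all 14 alternatives that give a fold change. The unadjusted p of Csf1 ranged from 0.0215 to 0.171 and its adjusted p from 0.259 to 1.00, by the tool of each alternative. The cause of these changes was not tested. No paired analysis was possible because the genotypes share fewer than 2 replicate numbers in the labels. With 2 libraries per genotype, the SE of the ligands' log2 fold changes ran from 0.28 (Csf1) to 0.69 (Ccl20).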
